A study of Rattus norvegicus with 17 samples.

Results

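The genes described here encode the invariant chain of MHC class II and the proteins that prepare and load its peptides: Cd74, RT1-DMa, RT1-DMb, RT1-DOa and Ifi30. They were taken by their gene symbols from the annotation of the array, and each of the 5 had 1 probe among the 22226 of the array and was among the 10457 probes that passed the detection filter in at least 1 group. The samples were hippocampal synaptosomes, a fraction enriched in pinched-off nerve terminals, from Fischer 344 x Brown Norway F1 male rats, 1 array per rat. There were 5 adult rats of 12 months, 5 aged intact rats of 28 months, which in the Morris water maze, a test of spatial memory, did as well as adults, and 7 aged impaired rats of 28 months, which did worse. The labels name no treatment, and total RNA of each was hybridised to an Illumina RatRef-12 array read in 1 colour.

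MHC class II molecules carry peptides from the endosomes of antigen-presenting cells to their surface, where CD4+ T cells read them. The invariant chain holds new class II molecules together, steers them to the endosome and blocks their groove until lysosomal proteases cut it down to a short remnant, CLIP. The DM molecule then exchanges CLIP for antigenic peptides, the DO molecule restrains DM, and a thiol reductase opens disulfide bonds of the antigens so that they can be cut. In the brain, microglia and macrophages of the borders are the cells best known to carry this machinery.

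The promoters of class II genes and of the genes that serve them share the X and Y boxes, which bind the RFX and NF-Y complexes and through them the transactivator CIITA. Promoter windows of 300 bases, from 250 before to 50 after the start in the RefSeq table of the GRCr8 assembly, were matched for 4 of the 5 genes, and RT1-DMb had none in it. They are shown for Cd74, higher in aged rats, for RT1-DMa, which did not pass the test, and for Ifi30, which held neither motif. In each, capitals mark ATTGG or CCAAT, the core of the Y box on either strand, and GATGA or TCATC, letters found in X boxes, on either strand.
Cd74, chr18:56526956-56527255, plus strand: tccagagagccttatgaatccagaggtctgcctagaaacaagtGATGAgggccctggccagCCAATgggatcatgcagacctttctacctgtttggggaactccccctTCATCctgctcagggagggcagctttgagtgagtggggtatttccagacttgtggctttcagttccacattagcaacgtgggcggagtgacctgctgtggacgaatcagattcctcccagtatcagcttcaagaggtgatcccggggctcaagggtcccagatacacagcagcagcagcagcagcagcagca
RT1-DMa, chr20:4712286-4712585, minus strand: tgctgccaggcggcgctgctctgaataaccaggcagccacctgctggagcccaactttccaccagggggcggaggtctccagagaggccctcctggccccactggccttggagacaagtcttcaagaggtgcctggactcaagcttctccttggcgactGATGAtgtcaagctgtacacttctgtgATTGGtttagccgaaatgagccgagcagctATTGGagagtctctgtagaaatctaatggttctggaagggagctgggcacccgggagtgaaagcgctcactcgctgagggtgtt
Ifi30, chr16:18709320-18709619, plus strand: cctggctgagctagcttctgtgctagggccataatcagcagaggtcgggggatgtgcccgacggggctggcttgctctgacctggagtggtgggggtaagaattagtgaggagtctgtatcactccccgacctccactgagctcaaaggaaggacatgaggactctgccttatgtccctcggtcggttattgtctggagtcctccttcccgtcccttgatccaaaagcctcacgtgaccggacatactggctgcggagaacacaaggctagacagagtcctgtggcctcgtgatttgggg
In Cd74, GATGA began 207 bases before the start and was followed after 13 bases by CCAAT. In RT1-DMa, GATGA began 91 bases before the start and was followed after 22 bases by ATTGG, with a further ATTGG 34 bases before the start. RT1-DOa (chr20:4758374-4758673, minus strand) held overlapping TCATC matches 131 and 128 bases before its start, 19 and 16 bases ahead of an ATTGG. All distances count from the start on which the window was built. For Cd74 and RT1-DOa the annotated gene begins farther upstream, at bases 56527071 and 4758491 inside the window, so their distances from that base are shorter. Either Y box core was found in 37.5% and either X box part in 37.3% of the 33469 rat promoters of this length, and an X box part followed by a Y box core after 10 to 30 bases in 612 of them (1.83%). The letters and the spacing were chosen with these promoters in view, and a match describes the letters only.

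All adult arrays lay on 1 slide and all aged arrays on another, so in each comparison of an aged group with adults slide and age cannot be told apart. Both aged groups shared their slide. The mean signal of an array ranged from 313.4 to 617.5 arbitrary units, and 10440 to 11565 probes were detected per array. Aged impaired replicate 4 stood apart in most of the genes described here, so the results on these 5 genes are given with and without it. Its correlation with the other arrays averaged 0.984, the lowest apart from adult replicate 4 (0.972). Of the 8 synapse genes with a probe, such as Snap25 and Syt1, all passed the detection filter, and their mean log2 intensity ranged from 10.87 to 11.39 over the 17 arrays. Neither separate cultures nor litters are named in the labels, and each array stands for 1 rat.

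Cd74, the invariant chain itself, was the gene of the group that was called between aged and adult rats, which lay on different slides. Its deposited signal was 124.1, 129.1, 139.8, 145.0 and 220.0 in adult replicates 1 to 5. In aged intact replicates 1 to 5 it was 622.2, 624.5, 1004, 819.8 and 991.6. Every aged intact signal lay above the highest adult signal, that of adult replicate 5. Over the 7 aged impaired rats the signal ranged from 513.6 in replicate 3 to 5386 in replicate 4, with a median of 873.5. All 12 aged rats lay above all 5 adults in signal, as was so for 1.58% of all tested probes, and the next highest aged impaired signal after replicate 4 was 1225 in replicate 7. The probe was detected on all 17 arrays, at 13.7 to 28.6 robust SD above the negative controls in adults and at 70.6 or more in aged rats.

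After background correction and quantile normalization, the log2 intensity of Cd74 averaged 7.09 ± 0.44 (SD, n = 5) in the adult group. The aged intact group averaged 9.61 ± 0.16 (SD, n = 5), and the aged impaired group 9.84 ± 1.11 (SD, n = 7). In the comparison of aged with adult rats, in which both aged groups weigh equally, Cd74 was higher by a log2 difference of 2.64 (SE 0.35, 95% interval 1.91 to 3.37, adjusted p = 0.000405 from limma), a 6.24-fold change. The difference was 2.53 (SE 0.42, adjusted p = 0.00755) in aged intact and 2.76 (SE 0.38, adjusted p = 0.00083) in aged impaired rats against the same adults. By its p-value Cd74 ranked 9 of 10457 in the first of these comparisons. With aged impaired replicate 4 left out, that group averaged 9.43 ± 0.22 (SD, n = 6), and aged rats exceeded adults by 2.44 (SE 0.14, adjusted p = 3.12e-09). With the standard background of limma's neqc in place of the robust one, Cd74 did not pass in aged intact rats (2.13, adjusted p = 0.0729).

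**Figure D1:**
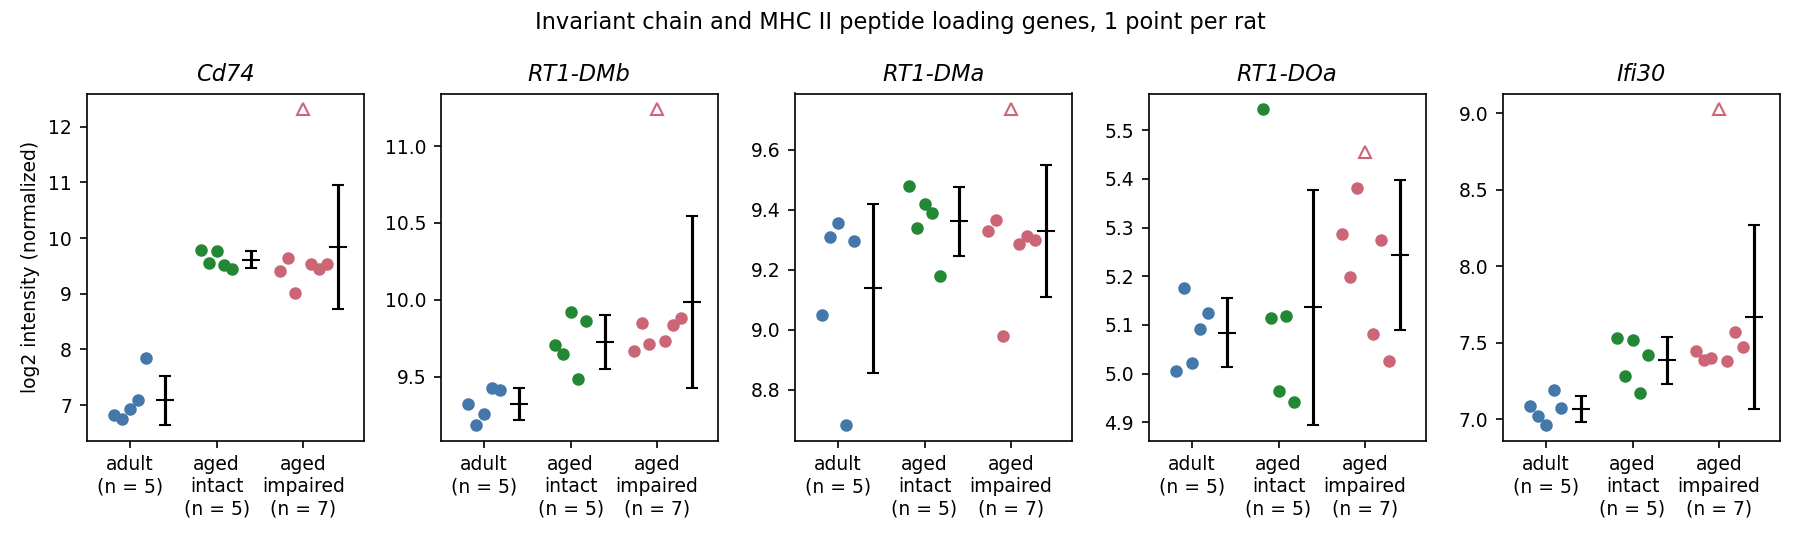
Normalized log2 intensity of the 5 genes in every rat (1 point per rat), by group, with the mean and SD of each group as black bars; the open triangle is aged impaired replicate 4. For Cd74 all aged rats lie above all adults, and the triangle lies at 12.31 for Cd74, 11.24 for RT1-DMb and 9.03 for Ifi30, above every other rat; the axes differ between panels and do not start at 0.

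RT1-DMb and RT1-DMa encode the beta and alpha chains of DM, which catalyses the exchange of CLIP for peptide. The signal of RT1-DMb was 585.8, 556.2, 583.8, 666.2 and 589.4 in adult replicates 1 to 5 and 595.4, 668.5, 1102, 806.5 and 1294 in aged intact replicates 1 to 5. The aged impaired signals had a lowest value of 798.8, a median of 979.4 and a highest value of 2556. Aged intact replicate 1 fell inside the adult range of signals, and the other 11 aged rats lay above it. On the normalized log2 scale the adults ranged from 9.19 to 9.43 and the aged rats from 9.48 in aged intact replicate 4 to 11.24 in aged impaired replicate 4, so the groups did not overlap. Over all tested probes, 0.593% showed no overlap with the aged rats on top, and among the 5 genes Cd74 and RT1-DMb did. For aged intact rats alone, Cd74 and RT1-DMb did not overlap with adults, where 1.6% of probes did not. For aged impaired rats alone, Cd74, RT1-DMb and Ifi30 did not, where 1.07% of probes did not.

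The mean log2 intensity of RT1-DMb went from 9.32 ± 0.10 (SD, n = 5) in the adult group to 9.72 ± 0.17 (SD, n = 5) in the aged intact and 9.99 ± 0.56 (SD, n = 7) in the aged impaired group. Aged rats differed from adults by 0.53 (SE 0.18, 95% interval 0.16 to 0.91), which did not pass the threshold of 0.05 (adjusted p = 0.134 from limma). When aged impaired replicate 4 was left out, the difference was smaller, at 0.43, but its SE was 0.08 and it passed (adjusted p = 0.00451). The differences of the aged intact and aged impaired groups from adults were then 0.40 (adjusted p = 0.0351) and 0.46 (adjusted p = 0.0119), against 0.40 (adjusted p = 0.412) and 0.66 (adjusted p = 0.108) with all arrays.

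RT1-DMa, the partner chain, moved less. Its signal was 485.6, 601.2, 621.3, 406.8 and 546.3 in adult replicates 1 to 5 and 501.6, 539.9, 794.4, 756.4 and 827.3 in aged intact replicates 1 to 5, and had a lowest value of 506.6, a median of 737.1 and a highest value of 1034 among aged impaired rats. The groups overlapped, since 5 of the 12 aged rats lay above the highest adult on the log2 scale. The lowest adult was replicate 4 (8.68) and the lowest aged rat aged impaired replicate 3 (8.98). The log2 difference of aged from adult rats was 0.21 (SE 0.11, 95% interval -0.02 to 0.44, adjusted p = 0.317), and 0.17 (adjusted p = 0.359) without aged impaired replicate 4. It was 0.22 (adjusted p = 0.465) in aged intact and 0.19 (adjusted p = 0.412) in aged impaired rats.

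RT1-DOa encodes the alpha chain of DO, the inhibitor of DM, and was the gene nearest to background. Its probe was detected on 3 of 5 adult arrays, on 4 of 5 arrays of aged intact rats and on 7 of 7 arrays of aged impaired rats, and passed the filter through the last group only. Its signal was 57.8, 63.3, 61.0, 62.9 and 60.8 in adult replicates 1 to 5 and 69.9, 66.5, 73.1, 73.4 and 74.5 in aged intact replicates 1 to 5. Among aged impaired rats the lowest signal was 66.7, the median 76.1 and the highest 83.7. All aged signals lay above all adult signals, but so did the negative controls, whose median was 43.6 to 47.4 on the adult and 48.5 to 56.3 on the aged arrays. In units of the controls' robust SD, the signal lay 2.22 to 3.20 above the control median in adults and 2.12 to 4.55 in aged rats, which overlapped. After background correction the log2 difference of aged from adult rats was 0.11 (SE 0.09, 95% interval -0.08 to 0.29, adjusted p = 0.538 from limma), and 0.09 without aged impaired replicate 4. Against adults the difference was 0.05 (adjusted p = 0.863) in aged intact rats and 0.16 (adjusted p = 0.403) in aged impaired rats, and the former turned to -0.05 without aged intact replicate 1, which had the highest value of all 17 rats (5.54).

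**Figure D2:**
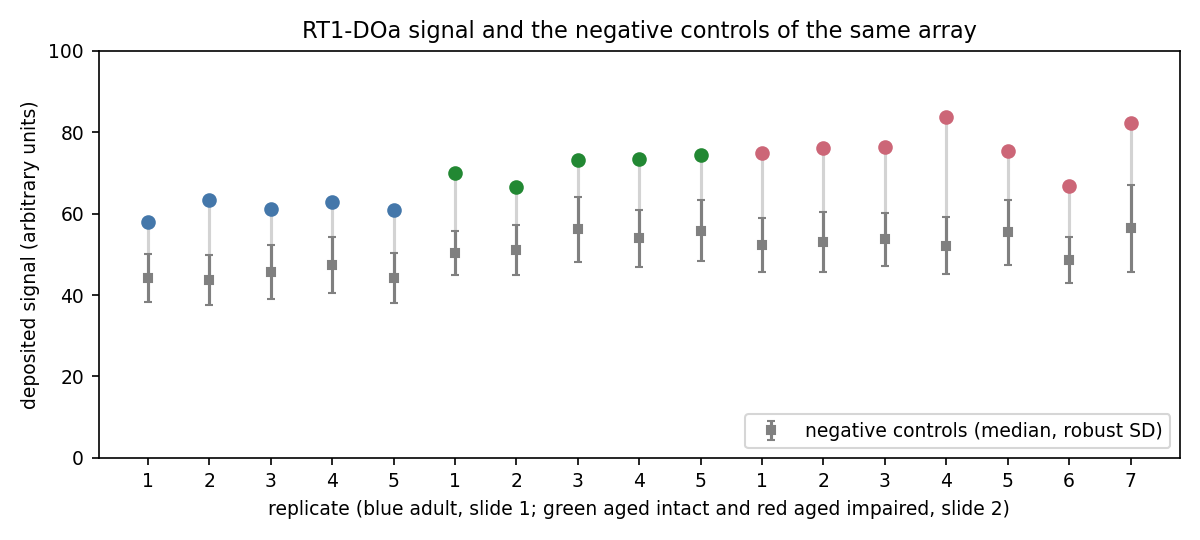
Deposited signal of RT1-DOa in each rat (coloured circles; blue adult, green aged intact, red aged impaired) and the median and robust SD of the negative controls implied by the detection p-values of the same array (grey squares and bars), in arbitrary units. The RT1-DOa signal and the controls both sit higher on the aged slide, the controls at 48.5 to 56.3 against 43.6 to 47.4 on the adult slide.

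Ifi30 encodes the lysosomal thiol reductase GILT, named for its induction by interferon gamma, which reduces disulfide bonds of endocytosed antigens. Its signal was 143.4, 149.7, 142.8, 154.7 and 143.2 in adult replicates 1 to 5 and 156.7, 159.7, 244.5, 194.9 and 268.3 in aged intact replicates 1 to 5. Among aged impaired rats the lowest signal was 191.2, the median 219.8 and the highest 587.4. All aged signals lay above all adult signals, which again was so for 1.58% of tested probes, and signals were higher on the aged slide in general (median log2 difference of all tested probes 0.22 before normalization). After normalization 11 of the 12 aged rats lay above the highest adult (7.19 in adult replicate 4), the exception being aged intact replicate 4 at 7.17.

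The log2 intensity of Ifi30 averaged 7.07 ± 0.09 (SD, n = 5) in the adult group, 7.38 ± 0.16 (SD, n = 5) in the aged intact group and 7.67 ± 0.60 (SD, n = 7) in the aged impaired group. Its difference between aged and adult rats was 0.46 (SE 0.19, 95% interval 0.06 to 0.86, adjusted p = 0.207 from limma). Once aged impaired replicate 4 was left out, it was 0.35 (SE 0.07) and passed (adjusted p = 0.0149), as did the difference of 0.38 in aged impaired rats (adjusted p = 0.029), whereas that of 0.32 in aged intact rats did not (adjusted p = 0.09).

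Counted together, 1 of the 5 genes was higher in aged rats, 0 were lower and 4 did not pass, where 0.813% of all tested probes were higher and 0.239% lower. The log2 differences of the 4 genes detected on every array lay between 0.21 and 2.64, all above 0, against 44.2% above 0 and a median of -0.02 over all tested probes. RT1-DOa is left out of the counts of differences above 0, because it was tested only through its detection in aged impaired rats. It stays in the counts given over all 5 genes. In aged intact rats 1 of the 5 was higher than in adults (Cd74) and 0 were lower, where 0.316% of all tested probes were higher and 0.0478% lower. The same 1 gene was higher in aged impaired rats, and 0 were lower, where 0.402% of probes were higher and 0.0574% lower. In each aged group the differences of these 4 genes from adults lay above 0, where 45.6% of probes did in aged intact and 42.9% in aged impaired rats. Cd74 and RT1-DMb are also in the list of MHC II genes that the study drew up on these same arrays, so their direction is not independent evidence. By quantitative PCR of the same synaptosome samples, the paper also reported RNA of both as higher in aged rats. Leaving out aged impaired replicate 4, 3 of the 5 were higher in aged rats (Cd74, RT1-DMb and Ifi30), where 1.12% of all tested probes were. In aged intact rats 2 then passed, where 0.688% of probes did, and in aged impaired rats 3, where 0.63% did. The same 3 genes were called in aged rats when adult replicate 4 was left out as well. Leaving out any 1 of the other 16 arrays instead left Cd74 as the gene that passed.

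Between aged impaired and aged intact rats, which lay on 1 slide, 0 of the 5 genes differed, and 0% of all tested probes were called higher or lower (limma). At an unadjusted p under 0.05, 372 of the 10457 probes differed, and none of the 5 genes was among them. The log2 difference was 0.23 (95% interval -0.57 to 1.03) for Cd74, 0.26 (-0.15 to 0.67) for RT1-DMb, -0.03 (-0.28 to 0.22) for RT1-DMa, 0.11 (-0.10 to 0.31) for RT1-DOa and 0.28 (-0.15 to 0.72) for Ifi30, each with an adjusted p of 0.995. Of the 4 genes detected on every array, 3 had a difference above 0, where 49.9% of all probes did, and for 0 of the 5 did every aged impaired rat lie above every aged intact rat, as 0.0669% of all probes did. Without aged impaired replicate 4 the difference of Cd74 turned to -0.18 (-0.52 to 0.15), that of RT1-DMb shrank to 0.05 (-0.12 to 0.23) and that of Ifi30 to 0.06 (-0.11 to 0.22). The interval of Cd74 thus ran from 0.70-fold to 1.11-fold without that rat, and from 0.67-fold to 2.05-fold with it.

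**Figure D3:**
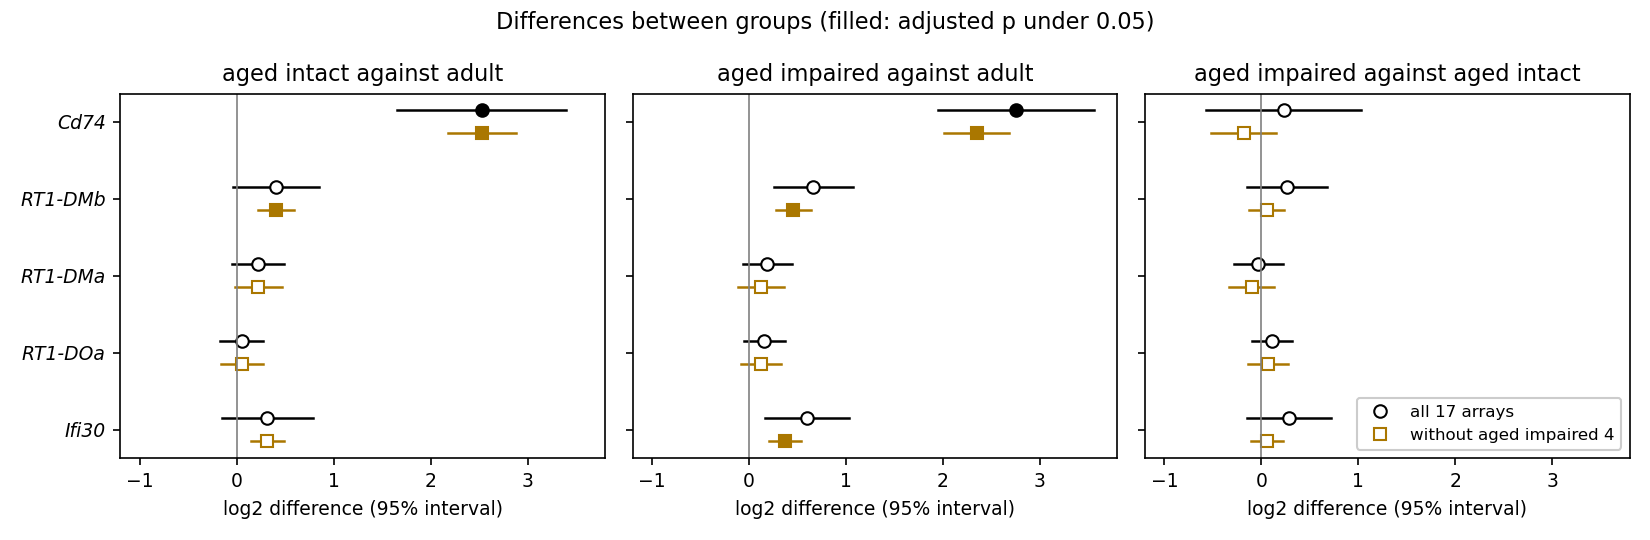
Log2 differences of the 5 genes with their 95% intervals in 3 comparisons, fitted over all 17 arrays (black circles) and without aged impaired replicate 4 (brown squares); filled symbols have an adjusted p under 0.05. Cd74 passes against adults in both aged groups, RT1-DMb does so without that rat, and all intervals for aged impaired against aged intact rats cross 0.

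Aged impaired replicate 4 was the highest of all 17 rats in Cd74, RT1-DMa, RT1-DMb and Ifi30, and the second in RT1-DOa. It exceeded the mean of the other 11 aged rats by 2.80 in Cd74, 1.61 in Ifi30, 1.49 in RT1-DMb, 0.43 in RT1-DMa and 0.28 in RT1-DOa on the log2 scale. Ranked by this excess over all 10457 tested probes, Cd74 stood at place 6, Ifi30 at 35, RT1-DMb at 48, RT1-DMa at 502 and RT1-DOa at 883. An excess above 1 was seen in 129 probes (1.23%), and 3 probes lay below -1.

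Among the 11 other aged rats the SD of Cd74 was 0.21 on the log2 scale, the largest of the 5 genes. It was 0.18 for RT1-DOa, 0.13 for RT1-DMa, 0.13 for RT1-DMb and 0.12 for Ifi30. Over the 12 aged rats the Spearman correlation of Cd74 was 0.79 with RT1-DMa, 0.41 with RT1-DMb, 0.31 with Ifi30 and 0.08 with RT1-DOa. The Pearson correlations with RT1-DMb and Ifi30 were 0.948 and 0.955, and fell to 0.23 and 0.18 without aged impaired replicate 4, so they rest on that rat. That with RT1-DMa was 0.83 with and 0.91 without it. Among the 7292 other named genes compared, those that followed Cd74 most closely over these rats by Spearman correlation were Icam1 (0.91), Id1 (0.90), Unc93b1 (0.89), Acvrl1 (0.89) and Slc29a3 (0.88). Icam1 encodes an adhesion molecule of leukocytes and vessels, and Unc93b1 a chaperone of the endosomal Toll-like receptors. Their Pearson correlations without aged impaired replicate 4 lay between 0.72 and 0.85. These are descriptions over rats that share a slide, and the 50th gene in this order still reached 0.73.

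Of the class II chains that the 5 gene products serve, RT1-Ha had the list's only probe with a gene symbol, and it was detected on 0 arrays. RT1-Da, RT1-Db1, RT1-Ba and RT1-Bb had no probe annotated with their symbols, so their expression was not assessed here. Of the 22226 probes of the array, 9034 carried no gene symbol, so a probe for these chains may be among them. The paper counted class II alpha and beta chains among the genes increased with age on these same arrays. It also reported their RNA as higher in aged synaptosomes by quantitative PCR. Of 8 genes for the transcription of class II, the transactivator Ciita and the promoter-binding subunits Rfx5, Rfxap and Nfya were detected on 0 arrays. The 4 tested, Rfxank, Nfyb, Nfyc and Creb1, had log2 differences between aged and adult rats of -0.08 to 0.15 with a median of 0.01, and 0 were called. Of 5 tested genes of interferon gamma signalling, which induces Ciita, 0 were called, with a median of -0.00202, and Ifngr1, a chain of its receptor, had the highest difference (0.32, adjusted p = 0.106). Irf1, an interferon-induced transcription factor of this list, differed by 0.06 (adjusted p = 0.871), and its log2 intensity was 9.47 in aged impaired replicate 4 against 8.35 in the next highest aged rat.

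The list for the degradation of the invariant chain held genes that rose with age. It had 7 tested genes, of which 6 encode proteases and 1, Cst3, the protease inhibitor cystatin C. Of the 7, 4 were higher in aged rats, all of them proteases, and 0 lower, where 0.813% of all tested probes were higher and 0.239% lower. The differences lay between 0.08 (Cst3) and 0.65 with a median of 0.43. Ctss, the cathepsin that trims the invariant chain to CLIP in most antigen-presenting cells, rose by 0.52 (SE 0.12, adjusted p = 0.0463 from limma). Lgmn, the asparaginyl endopeptidase that makes early cuts in it, rose by 0.34 (SE 0.07, adjusted p = 0.0224). The aspartic proteases Ctsd and Ctse rose by 0.65 (SE 0.14, adjusted p = 0.0272) and 0.62 (SE 0.13, adjusted p = 0.0202). Ctse is also in the list of MHC II genes that the study drew up on these same arrays, so its direction is not independent evidence. The count was 5 without aged impaired replicate 4, with Ctsh (0.36, adjusted p = 0.0149) added, where 1.12% of all tested probes were higher. Without adult replicate 4, or with the standard background, it was 2. Against adults, 0 of the 7 passed in aged intact and 0 in aged impaired rats with all arrays. Those counts were 2 (Ctse and Lgmn, adjusted p = 0.0167 and 0.032) and 1 (Ctsh, adjusted p = 0.0438) without aged impaired replicate 4, where 0.688% and 0.63% of all tested probes were higher. They were 1 and 1 without adult replicate 4 as well as with the standard background.

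Mif, a cytokine that binds the invariant chain at the cell surface, differed by -0.19 (adjusted p = 0.253), and Cd44, which signals with the invariant chain there, by 0.31 (adjusted p = 0.0873), and 0 of 4 tested genes of this group were called. Of 7 tested genes for the turnover and transport of class II, 0 were called, with a median of 0.08, and the lowest p was that of the lysosomal membrane protein Lamp1 (0.19, adjusted p = 0.0819). With the standard background Lamp1 passed (0.20, adjusted p = 0.00588). In aged impaired against aged intact rats, 0 genes were called in each of these groups.

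**Figure D4:**
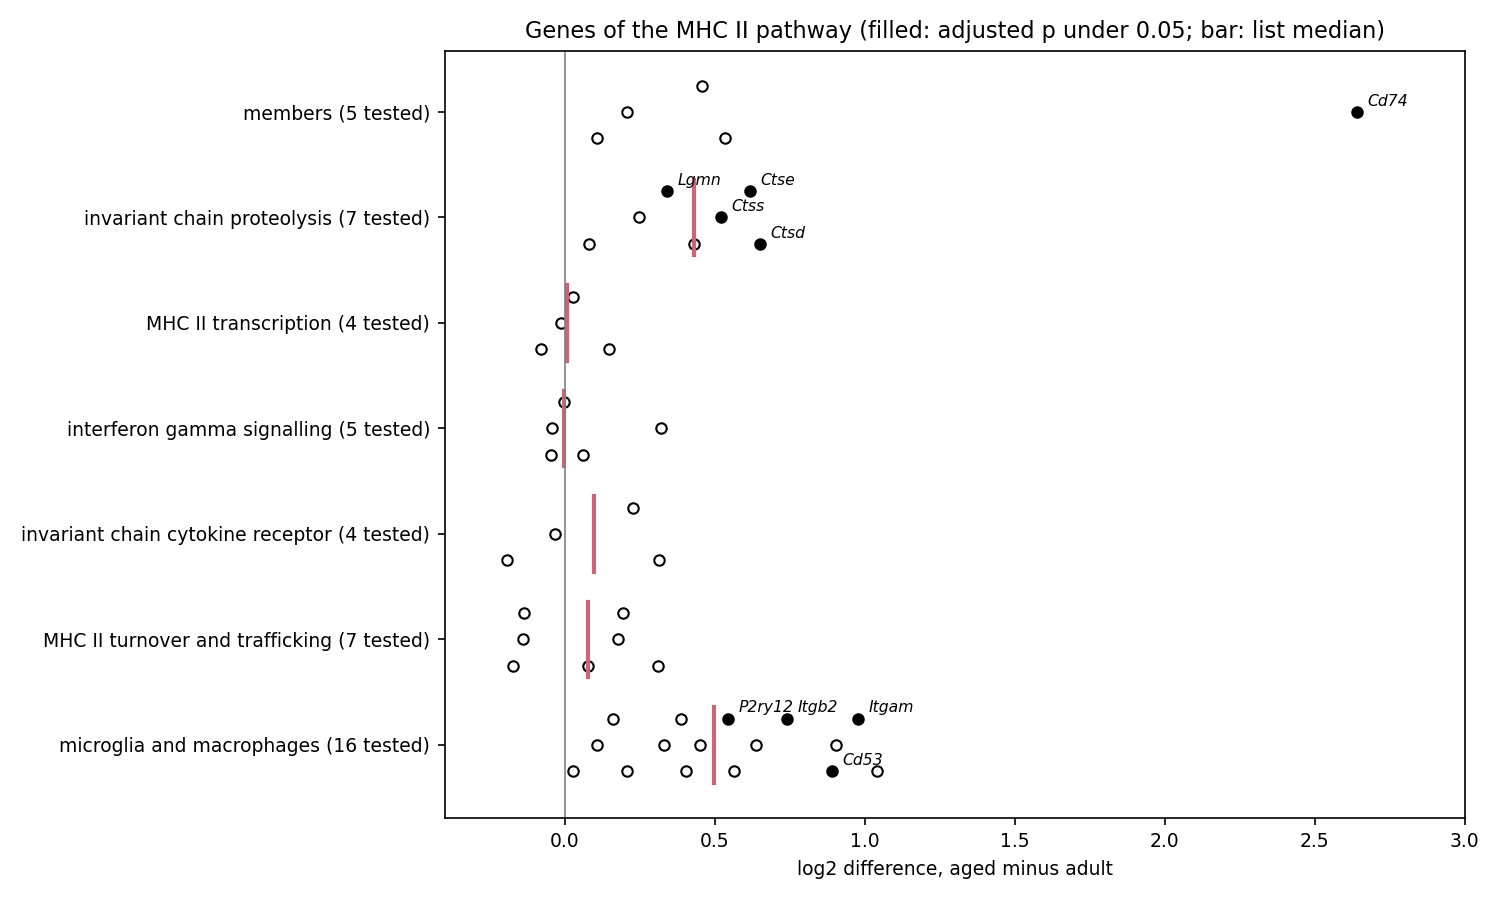
Log2 difference of aged minus adult rats for each tested gene, by list (members are the 5 genes described here); filled points have an adjusted p under 0.05 and are named, and the red bar is the median of each list other than the members. Cd74 lies at 2.64, the called proteases between 0.34 and 0.65, and the genes for transcription and interferon gamma signalling lie around 0.

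Markers of microglia and macrophages were compared between aged and adult rats in the same way. Of 16 tested, 4 were higher in aged rats and 0 lower, all 16 differences lay above 0, and their median was 0.50. Among all tested probes 0.813% were called higher and 0.239% lower, and 44.2% had a difference above 0. Cd53, a tetraspanin of leukocytes, rose by 0.89 (SE 0.12, adjusted p = 0.000333), and the integrin chains Itgam and Itgb2 by 0.98 (adjusted p = 0.0357) and 0.74 (adjusted p = 0.0192), and the purinergic receptor P2ry12 by 0.54 (adjusted p = 0.0168). Aif1, which encodes Iba1, and Tmem119 had differences of 0.03 (adjusted p = 0.936) and 0.11 (adjusted p = 0.613). The difference of Aif1 turned to -0.06 without aged impaired replicate 4. The count was 8 and the median 0.38 without aged impaired replicate 4, where 1.12% of all tested probes were higher. Without adult replicate 4, or with the standard background, the count was 2.

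The mean log2 intensity of the 16 markers ranged from 7.69 to 7.87 in adult, 8.07 to 8.32 in aged intact and 7.88 to 9.38 in aged impaired rats. Its highest value was that of aged impaired replicate 4, next to 8.29 in the second of that group, and this rat was the highest aged rat in 13 of the 16 markers. The mean of the 5 genes described here was likewise 9.55 in that rat and 8.10 to 8.29 in the other aged impaired rats. In such a fraction, more material of a cell type and more RNA per cell cannot be told apart, and the part of these markers in the differences was not tested. Aged impaired replicate 3, which had the lowest Cd74 of the aged rats (9.01), also had the lowest mean of the microglia markers among them (7.88). This was not particular to microglia, since that rat was also the lowest aged rat for oligodendrocytes (10.14) and for meninges and vascular wall (8.20). The same was so for the interferon gamma list (9.22), the class II turnover list (10.55) and the tested endothelium gene (7.09). It was not so for neurons and synapses (11.18), astrocytes (11.29), the proteolysis list (10.92) and the cytokine receptor list (8.27), where other aged rats lay lower.

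Of 6 tested genes of border macrophages and dendritic cells 0 were called, 3 had a difference above 0, and the median was 0.08. Pf4 was at 0.62 (adjusted p = 0.0562) and Mrc1 at 0.36 (adjusted p = 0.122), and Pf4 passed without aged impaired replicate 4 (0.65, adjusted p = 0.0423). The dendritic cell genes Zbtb46, Batf3, Clec9a and Xcr1 and the B cell genes Ms4a1 and Pax5 were detected on 0 arrays. So was Cd163 of the border macrophage and dendritic cell list, whereas Flt3 and Ccr7 of that list were tested and not called. Of 13 genes of B and T lymphocytes 1 was tested, Cd3e, at -0.06 (adjusted p = 0.688). Of 4 tested astrocyte genes 0 were called, with a median of 0.00387. Of 5 of oligodendrocytes the myelin glycoprotein gene Mag was higher (0.52, adjusted p = 0.0447), a call lost without adult replicate 4 (0.38, adjusted p = 0.127) and with the standard background (0.34, adjusted p = 0.0634). Of 8 of neurons and synapses 0 were called, with a median of -0.08. Among 3 tested genes of red blood cells, 2 of choroid plexus, 4 of meninges and vascular wall and 1 of endothelium, 0 were called. The haemoglobin genes Hbb and Hba1 differed by 0.46 (adjusted p = 0.275) and 0.49 (adjusted p = 0.26), and Ttr, the transthyretin gene of choroid plexus, by -0.67 (adjusted p = 0.292). Cldn5, a tight junction gene of endothelium, differed by 0.16 (adjusted p = 0.762) and was highest in aged impaired replicate 4, at 9.27 against 8.43 in the next aged rat. The means of the proteolysis and interferon gamma lists were also highest in that rat, at 11.26 and 9.84 against 11.03 and 9.49 in the next, whereas those of the neuron, lymphocyte, border macrophage and cytokine receptor lists were lowest in it.

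**Figure D5:**
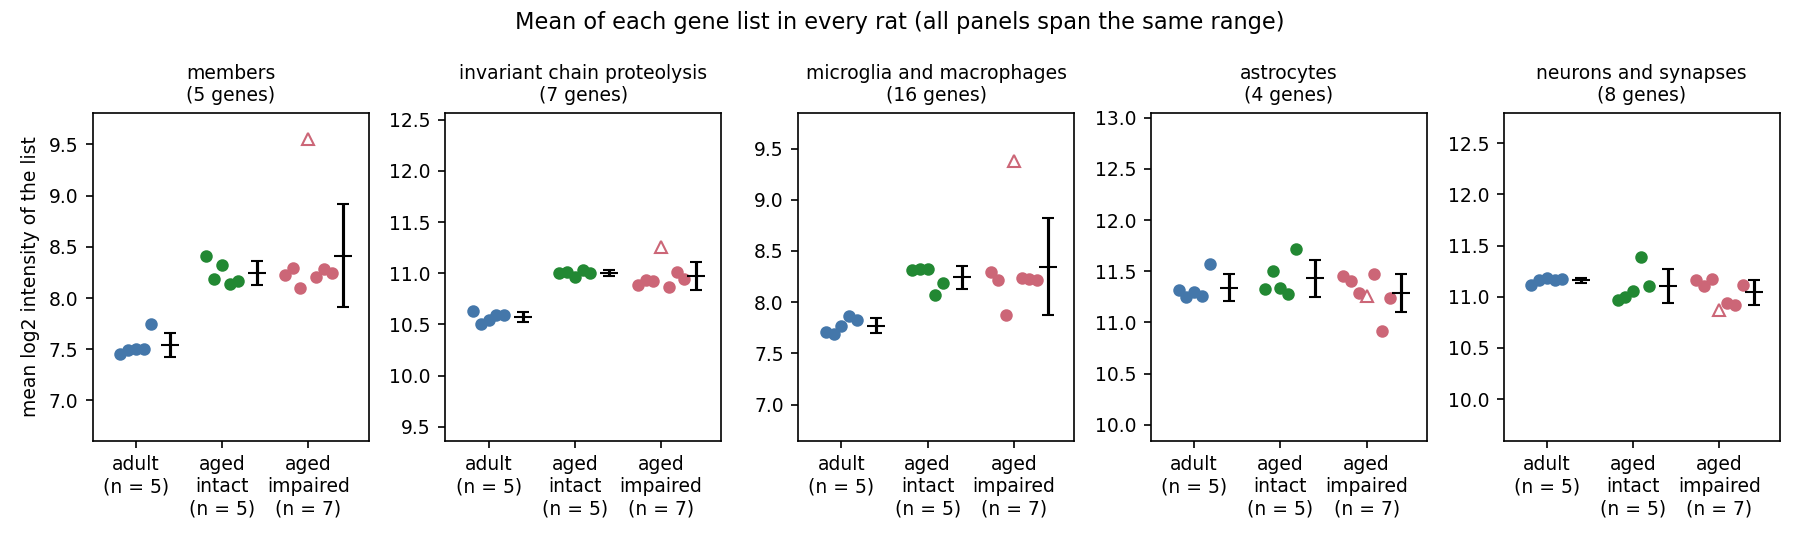
Mean log2 intensity of each list in every rat (1 point per rat), by group, with the group mean and SD as black bars and aged impaired replicate 4 as the open triangle; each panel spans the same range of log2 units. The 5 genes described here (members), the proteolysis list and the microglia markers are highest in that rat, at 9.55, 11.26 and 9.38, whereas its values for astrocytes and neurons lie among or below those of the other rats.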

How the data were processed

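Synaptosome RNA from the hippocampus of 17 rats had been hybridised to Illumina RatRef-12 arrays. The authors deposited the non-normalized signal intensity of each probe and a detection p-value, and the submitters' processing notes name GenomeStudio 1.0.6; the deposited series values held the same numbers. Replicate numbers are those of the labels' descriptions, not of the sample titles. The 5 genes and all lists were chosen with earlier results of these data known. Of 22226 probes, 13192 carry a gene symbol, and symbols were updated through the Entrez ID. The background was corrected by normexp, with centre and spread of the negative controls taken as the median and scaled MAD of the control intensities that the detection p-values imply (robust SD 5.41 to 10.7, against 120 to 225 with the standard estimate, which a few bright controls inflate). An offset of 16 was added, arrays were quantile-normalized and log2 values taken, so fold changes of dim genes are understated. The 10457 probes that every array of some group detected at a p under 0.05 were tested with limma 3.58.1 (R 4.3.3), lmFit and eBayes over 3 groups, with Benjamini-Hochberg adjustment over all of them and a threshold of 0.05. The fit was tested on simulated data. Named genes were the 5 members, the called genes of each list or up to 4 with the lowest p, and the 5 genes most correlated with Cd74. Ctsh, Cst3, Irf1, Aif1, Tmem119, Flt3, Ccr7 and the genes detected on 0 arrays were named after their values were seen. The number of arrays limits the precision. Alternatives were other backgrounds, normalizations, offsets, filters, array weights, slide position, a replicate block, the methods' test and leaving out each array; those that drop aged impaired replicate 4 together with another change were chosen after the data had been seen.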

Additional observations from a re-analysis of the deposited data

Results flagged for a closer look

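The log2 intensity of aged impaired replicate 4 stood far from the other 6 aged impaired rats in 3 of the 5 genes, by the gap to its nearest neighbour relative to the range of the group. It was 12.31 for Cd74, where the next rat was at 9.65. For RT1-DMb it was 11.24, with the next at 9.88. For Ifi30 it was 9.03, with the next at 7.57. Chance flags about 1 in 20 groups by this rule, and the 3 values come from 1 array.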

How the results depend on the processing

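With aged impaired replicate 4 left out, 3 genes were called in aged against adult rats, 2 in aged intact and 3 in aged impaired rats, in place of 1 in each. Over the arrays left out in turn, the genes called ranged from 1 to 3, 1 to 2, 1 to 3 and 0 to 0 in aged, aged intact and aged impaired against adult rats and in aged impaired against aged intact rats. All probes called ranged from 40 to 138 (110 with all arrays), 16 to 83 (38), 31 to 75 (48) and 0 to 1 (0). Without both adult replicate 4 and aged impaired replicate 4 the 5 genes gave the same counts as without the latter alone, with 81 and 78 probes in the aged intact and aged impaired groups. The standard background gave 0 genes in aged intact rats. Array weights gave 2 genes in aged and 2 in aged impaired rats, with 289, 80 and 231 probes in the 3 comparisons with adults. Median scaling gave 3 genes (297 probes) in aged impaired rats, and signals without normalization 3 (364 probes), and 13 probes in aged intact rats. These scalings moved the median of all probes in that comparison to 0.11 and 0.25, and the split of higher against lower calls in aged against adult rats from 85 and 25 to 124 and 0 and to 78 and 0. The methods' test, which has no pooled aged group, called 2 genes in aged impaired rats unadjusted, with 545 and 602 probes in the aged intact and the aged impaired group against adults and 61 between the aged groups, and 23 and 23 in the first 2 after Benjamini-Hochberg adjustment. Average normalization gave 57 probes in aged rats. Slide position as a covariate gave 65 in aged and 18 in aged intact rats, and a fit of only the groups compared 27 in aged impaired rats. Median scaling without aged impaired replicate 4 gave 3 and 3 genes and 174 and 227 probes in aged and aged impaired rats, and the standard background without it 3, 2 and 3 genes and 76 probes in aged intact rats.

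The difference of Cd74 between aged impaired and aged intact rats turned to -0.18 without aged impaired replicate 4, and, with that rat left out as well, to -0.18 without adult replicate 4, to -0.21 with the standard background and to -0.10 with median scaling. That of RT1-DMa turned to 0.0535 with median scaling, 0.11 without normalization, 0.00812 with slide position and 0.0269 without aged impaired replicate 3. That of RT1-DOa between aged intact and adult rats turned to -0.0263 with slide position and to -0.0498 without aged intact replicate 1. Over the arrays left out in turn these 3 differences ranged from -0.18 to 0.37, from -0.0985 to 0.0269 and from -0.0498 to 0.0995. The cause was not tested. RT1-DOa has no value with the filters that ask for detection on all arrays or for a detection p under 0.01. With a replicate block the genes called stayed at 1, 1, 1 and 0, and all probes called were 26, 14, 18 and 0. The numbers, which the labels count within each group, name no shared litter or day. After the group mean of each probe was subtracted, same-numbered rats of different groups correlated at -0.317 to 0.255 (median 0.05 over 15 pairs). Rats of other numbers correlated at -0.381 to 0.483 (median -0.02 over 80 pairs). RT1-DOa lay too near the negative controls for a small difference to be measured.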
